A study of Mus musculus with 32 samples.

Results

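The genes described here are those of antigen presentation by the major histocompatibility complex (MHC) and of the interferon response, followed in eye, brain and heart of sighted C3H mice. Members were taken by gene symbol alone: symbols beginning with H2-, the symbols B2m, Tap1, Tap2 and Tapbp, and numbered members of the Ifi, Ifit, Ifitm, Irf, Stat, Isg, Oas, Oasl, Gbp and Mx families. This gave 54 of the 20794 probes and 46 of the 9030 named genes on the array.

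The sighted mice were males of the C3H seh line. Their controls were C3H males carrying pde6b-, the allele that gives C3H mice inherited loss of rods. Each cDNA array held RNA from an organ of sighted mice in one dye and a pool of RNA from the same organ of 6 control males in the other. Brain and heart controls were pooled from one set of mice and eye controls from another. Ages, treatments and the sighted line's own Pde6b genotype were not stated in the labels or design text. A measured value is a log2 ratio of sighted over control RNA, where 0 means equal signal and -1 means 2-fold lower in sighted mice. There were 12 arrays of eye, 12 of brain and 8 of heart. The mean of 2 arrays of opposite dye with consecutive numbers was taken as 1 replicate, giving 6 eye, 6 brain and 4 heart replicates. The labels do not tie arrays to animals, so the spread between replicates may be partly technical, and the single pool leaves out the spread between control animals.

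MHC class I molecules consist of an H2 heavy chain and the light chain beta 2-microglobulin, encoded by B2m, and show peptides from inside the cell to CD8 T cells. The Tap transporter carries these peptides into the endoplasmic reticulum. MHC class II molecules are built by antigen-presenting cells and show peptides taken up from outside. Interferons bind their receptors and act through Jak kinases and Stat proteins, and Irf factors work with them on the promoters of interferon-stimulated genes. In the normal eye MHC expression is known to be low, and microglia are the resident immune cells of the retina.

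Short promoter sites for those factors are known, and 14 of the 41 members with a promoter window held a match to either one searched here. The interferon-stimulated response element was searched as GAAA, any 2 bases and GAAA again, and the gamma-activated site, which Stat dimers bind, as TTCNNNGAA, both on either strand, in the 250 bases before each transcription start annotated by RefSeq on GRCm38.p6. Of the 46 members 41 had such a window, among them 17 of the 21 members that were lower in the sighted eye. The response element stood in 4 of these 17 genes (23.5%), in 4 of the 21 members not called in the eye (19.0%) and in 3.46% of all 27025 genes. The gamma-activated site stood in 2 of the 17 lower genes (11.8%), in 5 of the 21 members not called (23.8%) and in 8.13% of all genes. The 5 lower members with a match are shown because they are the sequences behind these counts. Matches are in capitals, and each run ends at the base before the start. They show the reference genome, not the C3H mice.
B2m (chr2:122147437-122147686, plus strand): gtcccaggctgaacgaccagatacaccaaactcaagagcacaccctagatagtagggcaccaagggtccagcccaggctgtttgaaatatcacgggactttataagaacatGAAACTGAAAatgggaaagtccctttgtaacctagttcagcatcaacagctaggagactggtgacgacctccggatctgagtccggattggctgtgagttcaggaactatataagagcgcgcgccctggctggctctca
Irf1 (chr11:53769764-53770013, plus strand): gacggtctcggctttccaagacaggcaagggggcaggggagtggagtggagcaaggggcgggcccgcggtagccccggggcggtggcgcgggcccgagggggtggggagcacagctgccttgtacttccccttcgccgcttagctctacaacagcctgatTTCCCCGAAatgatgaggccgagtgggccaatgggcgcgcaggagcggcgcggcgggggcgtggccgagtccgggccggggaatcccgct
Oas1a (chr5:120907526-120907775, minus strand): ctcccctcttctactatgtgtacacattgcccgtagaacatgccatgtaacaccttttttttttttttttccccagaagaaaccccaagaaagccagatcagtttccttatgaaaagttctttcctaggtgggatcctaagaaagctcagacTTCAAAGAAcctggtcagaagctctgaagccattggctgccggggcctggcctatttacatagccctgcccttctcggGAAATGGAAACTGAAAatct
Ifitm2 (chr7:140955962-140956211, minus strand): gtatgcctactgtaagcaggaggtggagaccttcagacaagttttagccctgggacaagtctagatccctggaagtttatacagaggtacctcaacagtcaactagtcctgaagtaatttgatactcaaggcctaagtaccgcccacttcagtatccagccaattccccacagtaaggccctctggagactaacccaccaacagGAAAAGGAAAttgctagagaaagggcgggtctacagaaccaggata
Ifi205 (chr1:174031756-174032005, minus strand): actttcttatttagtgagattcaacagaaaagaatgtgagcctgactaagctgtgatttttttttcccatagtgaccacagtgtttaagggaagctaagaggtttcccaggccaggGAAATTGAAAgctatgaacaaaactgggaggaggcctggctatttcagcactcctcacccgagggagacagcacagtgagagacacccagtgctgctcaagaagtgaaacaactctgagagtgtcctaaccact
In Oas1a the last stretch of capitals holds 2 overlapping response elements with 4 bases between them and the start, and the first is a gamma-activated site with 89 bases to the start. The B2m match has 129 bases between it and the start, and the Irf1 match, a gamma-activated site, has 81. Members not called in the eye held the same sites, with a response element in Stat2, Irf2, Stat4 and H2-T23. A match is a description of the letters and no sign of binding.

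The member probes gave a value for 49 to 54 of 54 on the eye arrays, 47 to 53 on the brain arrays and 20 to 51 on the heart arrays. Over all probes, missing values made up 1.62 to 5.10% of an eye array, 1.01 to 5.05% of a brain array and 5.96 to 61.58% of a heart array. The direction of the ratio is likely, not stated. It was taken from 4 probes of rod photoreceptor genes, whose median on the eye arrays was 5.23 to 5.76 where Cy5 marked the sighted RNA and -5.66 to -4.30 where Cy3 did. As the values are ratios, they show no level in either group, and the organ labels could not be checked against a marker's level.

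In the eye, 21 genes of MHC class I, class II and the interferon response, H2-K1, B2m, H2-Ab1, Irf7 and Ifitm3 among them, were lower in sighted than in control mice, and Irf3 was higher. Of the 44 members tested, 21 were lower, 1 was higher and 22 were not called at an adjusted p of 0.05 (limma, Benjamini-Hochberg over 15874 genes and unnamed probes). Over all features tested, 11% were called lower, 15.9% higher and 26.8% either way. The mean ratio was below 0 in 38 of 44 members, against 44.5% of all features, and every replicate was measured and below 0 in 23 members, against 12.1% of all features. The members' median ratio was -0.26, while the median of all features was 0.027. Ifit3, with 1 replicate, and Irf5, with 4, had too few values for the test. Among the lower members the fold ranged between 1.28 for Stat5a and 2.01 for H2-K1, apart from 3.92 for the probe named Tap1, whose ratios lay near those of Hba-a1. In whole organs, fewer cells of a type and less RNA per cell cannot be told apart.

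**Figure D1:**
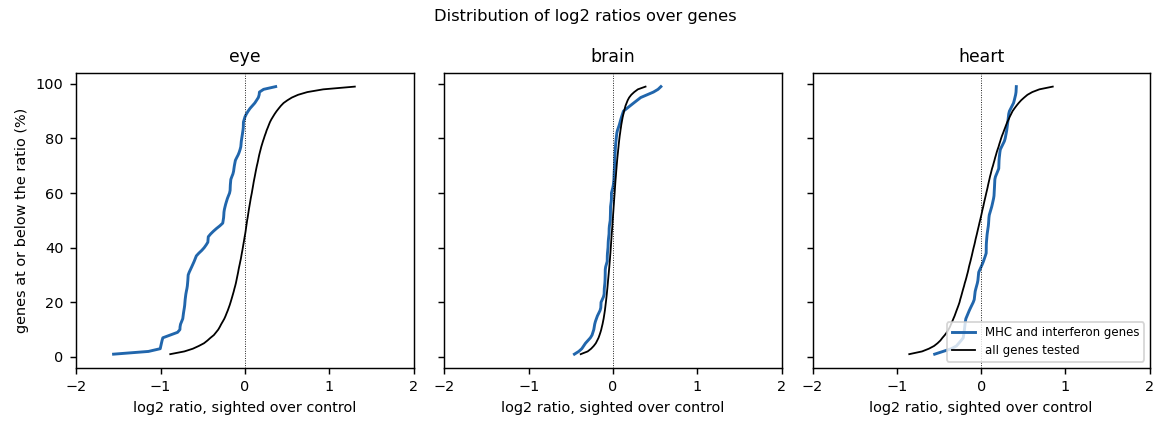
Cumulative share (%) against the mean log2 ratio of sighted over control RNA, in eye, brain and heart. Curves are drawn for the MHC and interferon genes and for all features tested, which are genes and unnamed probes. In the eye the members' curve lies left of that of all features, with medians of -0.26 and 0.027. In brain the medians are -0.033 and -0.0035, and in heart 0.090 and -0.013.

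**Figure D2:**
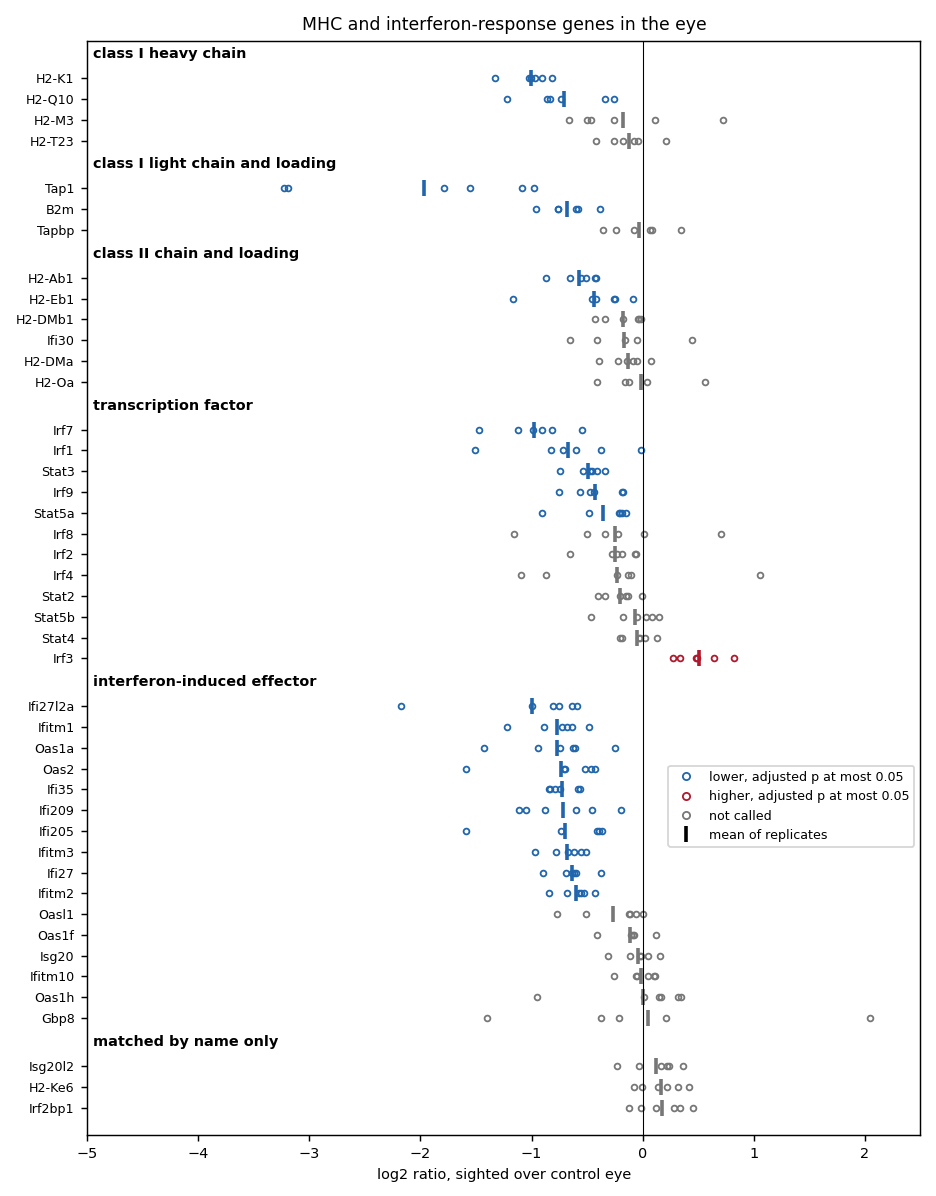
Log2 ratio of sighted over control eye RNA for the 44 members tested, ordered within each role by the mean. Open circles are replicates, bars are their mean, and colour gives the call at an adjusted p of 0.05. All replicates of the 21 lower members lie below 0, and those of Irf3 lie above it.

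Of 4 class I heavy chain genes, 2 were lower in the sighted eye, where 11% of all features were. H2-K1, a classical class I gene found on most cells, had log2 ratios of -1.33, -0.91, -0.97, -1.03, -1.002 and -0.82 in the 6 replicates. All lay close together and far from 0, with a mean of -1.01 ± 0.175 (SD, n = 6), a 2.01-fold lower signal (limma adjusted p = 4.57e-05). H2-Q10, a class I gene known for its secreted product, had -1.22, -0.34, -0.74, -0.86, -0.83 and -0.26, with a mean of -0.71 ± 0.358 (SD, n = 6, limma adjusted p = 0.00389). Its replicates 2 and 6 were the nearest to 0. H2-T23 (-0.13 ± 0.213) and H2-M3 (-0.18 ± 0.513), nonclassical class I genes, were not called, and each had replicates on both sides of 0 (SD, n = 6 each). The H2 class I genes resemble each other closely in sequence, and cDNA probes may not separate them.

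The light chain gene was lower as well. B2m had ratios of -0.96, -0.76, -0.58, -0.77, -0.60 and -0.39, all below 0, with a mean of -0.68 ± 0.198 (SD, n = 6, limma adjusted p = 0.00056). The probe named Tap1, a subunit of the peptide transporter, had -3.23, -3.20, -1.55, -1.79, -0.98 and -1.08. Its replicates formed a wide range in which 1 and 2 stood lowest, and the mean was -1.97 ± 1.01 (SD, n = 6, limma adjusted p = 0.0028). Its ratios lay near those of the globin gene Hba-a1 in all 3 organs, as given with the red cell genes, and whether it measures Tap1 was not tested. Tapbp, which encodes tapasin and holds class I at the transporter, was not called, at -0.030 ± 0.251 with 3 of 6 replicates below 0. No probe was named Tap2.

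Of 6 class II genes, the 2 that encode beta chains of the class II molecules themselves were lower, where 11% of all features were. H2-Ab1 had -0.87, -0.66, -0.51, -0.42, -0.55 and -0.43, and a mean of -0.57 ± 0.169 (SD, n = 6, limma adjusted p = 0.00084). H2-Eb1 had -0.42, -1.16, -0.25, -0.26, -0.092 and -0.46, and a mean of -0.44 ± 0.378 (SD, n = 6, limma adjusted p = 0.0384). Replicate 2 stood apart from the other replicates of H2-Eb1. Its call was lost without replicate 1, 3, 4 or 6, when every array entered on its own, when repeated array values above 15 were kept instead of treated as missing, and with sighted RNA in Cy5 only, with adjusted p between 0.0545 and 0.171. H2-DMa and H2-DMb1, which load peptide onto class II, H2-Oa, which restrains that loading, and Ifi30, a lysosomal reductase, were not called, with means between -0.17 and -0.019. The 2 probes of H2-DMb1 differed, with means of 0.19 and -0.53.

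Of 12 transcription factors tested, 5 were lower, 1 was higher and 6 were not called. Over all features, 11% were lower and 15.9% higher. Irf7, which drives type I interferon production, had ratios of -1.47, -0.82, -0.54, -1.12, -0.99 and -0.91. All were well below 0, with a mean of -0.97 ± 0.311 (SD, n = 6, limma adjusted p = 0.000443). Irf1, an activator of MHC class I and many interferon-gamma targets, had a lowest ratio of -1.51, a median of -0.66 and a highest of -0.014. Its mean was -0.67 ± 0.50 (SD, n = 6, limma adjusted p = 0.0189), and the call was lost without replicate 3 or 5 (adjusted p = 0.0506 and 0.0538) and with sighted RNA in Cy5 only (adjusted p = 0.141). Stat3, which carries signals of many cytokine receptors, lay between -0.74 and -0.34 with a median of -0.47, a mean of -0.49 ± 0.139 and a limma adjusted p of 0.00109 (SD, n = 6).

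Irf9, a partner of Stat2 at the response element, lay between -0.75 and -0.18 with a median of -0.46. The mean was -0.43 ± 0.22 (SD, n = 6, limma adjusted p = 0.00696), and the call was lost with every array on its own (adjusted p = 0.0549) and with sighted RNA in Cy5 only (adjusted p = 0.739). Stat5a, which responds to prolactin and other cytokines, lay between -0.90 and -0.15 with a median of -0.21. Its mean was -0.36 ± 0.293 (SD, n = 6, limma adjusted p = 0.0386). The call was lost without any one of replicates 1 to 5 (adjusted p between 0.0523 and 0.101), with every array on its own (0.212) and with the values above 15 kept (0.0528), and with sighted RNA in Cy5 only the mean was 0.17. The partner Stat2 (-0.21, adjusted p = 0.0567) and Irf2 (-0.25, adjusted p = 0.0679) had every replicate below 0 but were not called.

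Irf3 went the other way. This factor is activated by sensors of viral nucleic acid and switches on interferon-beta. Its ratios lay between 0.28 and 0.82 with a median of 0.48, all above 0, and the mean was 0.51 ± 0.201 (SD, n = 6, limma adjusted p = 0.00242). With sighted RNA in Cy3 only the mean was 0.16 and the call was lost (adjusted p = 0.358). The factors that were not called, Irf2, Irf4, Irf8, Stat2, Stat4 and Stat5b, had means between -0.25 and -0.049.

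The interferon-induced effector genes were the largest group by role, with 10 of 16 lower and 0 higher. Over all features, 11% were lower and 15.9% higher. Ifi27l2a, a small protein induced by type I interferon, had ratios of -2.17, -0.64, -0.75, -0.99, -0.81 and -0.59. Replicate 1 stood far below the others, and the mean was -0.99 ± 0.595 (SD, n = 6, limma adjusted p = 0.00669). Its relative Ifi27 lay between -0.90 and -0.38 with a mean of -0.64 ± 0.167 (SD, n = 6, limma adjusted p = 0.00047). The Ifitm proteins are membrane proteins that restrict the entry of viruses into cells. Ifitm1 had -1.22, -0.63, -0.89, -0.73, -0.69 and -0.48, with a mean of -0.77 ± 0.255 (SD, n = 6, limma adjusted p = 0.000678). Ifitm3 and Ifitm2 were also lower, with means of -0.68 ± 0.169 and -0.60 ± 0.144 (SD, n = 6 each, limma adjusted p = 0.000338 and 0.000423), while Ifitm10 had a mean of -0.017 ± 0.139 and was not called.

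Ifi35, which binds the interferon-induced protein Nmi, showed the least spread of the lower members, between -0.84 and -0.57 with a median of -0.77. The mean was -0.73 ± 0.123 (SD, n = 6, limma adjusted p = 0.000117). Oas proteins make oligoadenylates that activate RNase L when double-stranded RNA is present. Oas1a lay between -1.43 and -0.25 with a median of -0.69 (mean -0.77 ± 0.395, SD, n = 6, limma adjusted p = 0.00393). Oas2 lay between -1.59 and -0.43 with a median of -0.61 (mean -0.74 ± 0.434, SD, n = 6, limma adjusted p = 0.007). The relatives Oas1f, Oas1h and Oasl1 were not called, with means of -0.11, 0.0057 and -0.26.

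Ifi209 and Ifi205 belong to a family of interferon-induced proteins that bind DNA. Ifi209 lay between -1.11 and -0.19 with a median of -0.74, a mean of -0.71 ± 0.359 and a limma adjusted p of 0.00373 (SD, n = 6). With sighted RNA in Cy5 only its mean was -0.29 and the call was lost (adjusted p = 0.301). Ifi205 lay between -1.59 and -0.37 with a median of -0.41, a mean of -0.70 ± 0.523 and a limma adjusted p of 0.0286 (SD, n = 5). Its call was lost without replicate 2 or 3 (adjusted p = 0.075 and 0.0553), and with sighted RNA in Cy5 only its mean was -0.20 (adjusted p = 0.394). The exonuclease Isg20 (-0.042 ± 0.158, n = 6) and the guanylate-binding protein Gbp8 (0.052 ± 1.26, n = 5) were not called, and the Gbp8 replicates ranged between -1.40 and 2.04. The Ifitm, Oas1, Ifi27 and Ifi205 genes are families of close relatives, which cDNA probes may not separate.

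The choice by symbol also took 3 genes that are not of the pathway itself: H2-Ke6, an enzyme gene that lies in the MHC region, Isg20l2, a relative of Isg20 that processes ribosomal RNA, and Irf2bp1, a corepressor that binds Irf2. All 3 were not called in the eye, with a median of 0.17. Without them 21 of the 41 members left were lower in the eye and 1 was higher, where 11% and 15.9% of all features were.

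The lists of other pathway genes, set with earlier results of these data known, differed in how many genes were called. Over all features in the eye, 11% were lower and 15.9% higher. Of 13 genes listed for class I loading and its regulation, 9 were tested. Among these 9, 6 were lower and 0 higher in the sighted eye, with a list median of -0.63. Psmb8 (-1.05 ± 0.273) and Psmb9 (-0.78 ± 0.30) are immunoproteasome subunits and Psme1 (-0.68 ± 0.118) is part of its activator, with limma adjusted p of 0.000185, 0.00122 and 0.000158 (SD, n = 6 each). The chaperones Calr and Canx were not called, at 0.17 and 0.12. Of 10 genes listed for class II loading and its regulation, 6 were tested: Ctss, Cd74, Lgmn, Rfxank, Cd40 and Cd80. Only 1 was lower, Ctss, the protease that trims the invariant chain (-0.89 ± 0.15, SD, n = 6, limma adjusted p = 5.85e-05). Cd74, the invariant chain itself, had a mean of -0.20 ± 0.756 and was not called.

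Of 43 other interferon-stimulated genes listed, 17 were tested. Among these 17, 10 were lower and 1 was higher, where 11% of all features were lower and 15.9% higher. The list median was -0.40. Ly6e fell most (-1.01 ± 0.168), followed by Rsad2, which encodes the antiviral protein viperin (-0.93 ± 0.442), and Igtp, an immunity-related GTPase (-0.90 ± 0.309), with limma adjusted p of 4.06e-05, 0.00252 and 0.000648 (SD, n = 6 each). Daxx, a histone chaperone, was higher at 0.27 ± 0.0805 (SD, n = 6, limma adjusted p = 0.00923). Of 16 genes listed for interferon ligands, receptors and signalling, 11 were tested, with no ligand among them. Of these 11, 2 were called, where 26.8% of all features were. The lower one was Ifngr2, a chain of the interferon-gamma receptor (-0.26 ± 0.145, limma adjusted p = 0.0244, SD, n = 6). Pias1, a SUMO ligase, was higher at 0.30 ± 0.118 (SD, n = 6, limma adjusted p = 0.00906), and the other 9 were not called, among them Jak1, Jak2, Tyk2 and Ifngr1. In brain and heart 0 genes of these lists were called.

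Markers of other cell types, in lists also set with earlier results of these data known, were read on the same eye arrays. There, 11% of all features were lower and 15.9% higher. Of 21 microglia and macrophage markers listed, 13 were tested, with a list median of -0.34 and replicate medians between -0.615 and -0.169. Of these 13 markers, 9 were lower and 0 higher. Lgals3 (-0.85 ± 0.13), Laptm5 (-0.63 ± 0.142) and Aif1 (-0.60 ± 0.199) fell most among them (limma adjusted p = 5.42e-05, 0.000333 and 0.00108, SD, n = 6 each), while Fcgr3 (0.35 ± 0.42) and Ptprc (-0.090 ± 0.203) were not called. Of 8 lymphocyte markers tested, of 13 listed, 2 were higher, 1 was lower and 5 were not called, with a median of 0.082. Cd5 (0.90 ± 0.104) and Cd4 (0.32 ± 0.245) were higher and Cd3g (-0.25 ± 0.133) was lower (limma adjusted p = 2.39e-05, 0.036 and 0.0237, SD, n = 6 each). All 7 surface epithelium markers tested, of 11 listed, were lower, with a median of -1.19, keratins of cornea and conjunctiva among them. All 4 red cell markers tested, of 10 listed, were lower too, with a median of -1.50. The 4 rod genes tested, of 12 listed, were higher, with a median of 5.23, and served to orient the ratio. The part of these shifts in the members' ratios was not tested.

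The 21 lower members were not equally low in all replicates. Their median was -0.96, -0.72, -0.58, -0.61, -0.69 and -0.50 in replicates 1 to 6, while the median of all features lay between -0.10 and 0.14. Replicate 1 was the lowest for 14 of the 21 genes, replicate 2 for 3, replicate 6 for 3 and replicate 5 for 1. The surface epithelium markers were also lowest in replicate 1, at a median of -1.96, against medians between -1.25 and -0.75 in the other replicates. The microglia and macrophage markers had -0.46 there and were lowest in replicate 2. Without replicate 1, 19 of the 21 were still called lower.

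Among the red cell genes, the ratios of Tap1 lay very near those of Hba-a1, replicate by replicate. Hba-a1, an alpha globin gene, had eye ratios of -3.29, -3.27, -1.53, -1.56, -0.91 and -1.21, within a root mean square distance of 0.117 of Tap1 over the 6 replicates. In brain, Tap1 had -0.087, 0.28, -0.79, 0.29, -0.12 and -0.13, against 0.034, 0.24, -0.70, 0.32, -0.047 and -0.41 for Hba-a1, a distance of 0.133. In heart Tap1 had 0.038, -0.58, -0.34 and 0.72 and Hba-a1 had 0.053, -0.62, -0.25 and 0.66, a distance of 0.0569. Hba-x, the embryonic globin, was next (0.254 in eye, 0.254 in brain and 0.177 in heart). Alas2 and Slc4a1 were farther, at 0.904 and 1.79 in eye. This comparison was chosen after Tap1's values had been seen. Whether this probe measures Tap1, and the part of red cell RNA in its ratio, was not tested. Without it, 20 of 43 members were lower in the eye, where 11% of all features were. Between eye and brain 14 of 39 members differed, where 18.4% of all features did. Between eye and heart 5 of 29 did, where 4.64% of all features did.

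**Figure D3:**
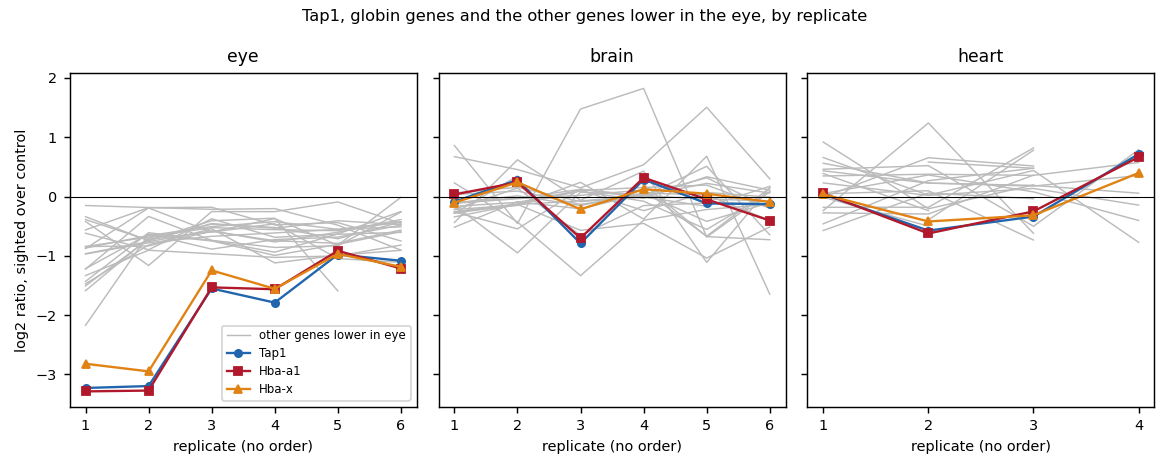
Log2 ratio of sighted over control RNA by replicate in eye, brain and heart for Tap1, Hba-a1, Hba-x and the other members that were lower in the eye (grey). Tap1 runs with Hba-a1 in all 3 organs, with distances of 0.117 (eye), 0.133 (brain) and 0.0569 (heart).

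Because each replicate averages both dyes, the orientations were also set side by side. With sighted RNA in Cy5 only, the median of all features in the eye moved to 0.27, and 16 members were lower and 5 higher, 15 of the lower ones being among the 21, where 3.12% of all features were lower and 37.2% higher. The 5 higher ones were Irf3, H2-Ke6, Irf2bp1, Isg20l2 and Tapbp. With sighted RNA in Cy3 only the median of all features was -0.22, and 25 members were lower, among them all 21, and 0 were higher, where 20.8% of all features were lower and 3.39% higher. H2-K1 had a mean of -0.83 in the first orientation and -1.18 in the second, B2m -0.57 and -0.79, Irf7 -0.61 and -1.34, and Tap1 -1.70 and -2.24. After each array was centred on its own median, 24 members were lower, the 21 among them, and 1 was higher, where 15.2% of all features were lower and 16% higher.

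**Figure D4:**
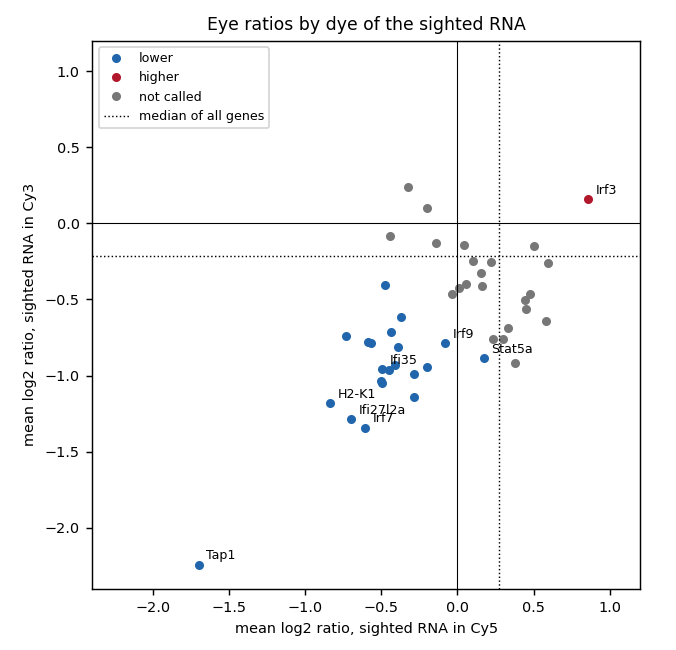
Mean log2 ratio in the eye with sighted RNA in Cy3 (vertical) against that with sighted RNA in Cy5 (horizontal), a point per member, coloured by its call. Dotted lines mark the median of all features, genes and unnamed probes, in each orientation, 0.27 in Cy5 and -0.22 in Cy3. Of the lower members, only Stat5a has opposite signs in the 2 orientations.

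In brain, 0 of 41 members were called (limma, adjusted p of 0.05), where 0.00621% of all 16112 features were. At an unadjusted p below 0.05 there were 3 members, and 4.08% of all features. The members' median was -0.033, and 25 of 41 means were below 0, against 51.6% of all features. Every replicate was measured and below 0 in 1 member and in 1.47% of all features. Ifi205 had the smallest p: its ratios lay between -1.04 and -0.13 with a median of -0.48, all below 0, and the mean was -0.51 ± 0.302 (SD, n = 6, limma adjusted p = 0.959). Ifi27l2a had 0.67, 0.45, 0.15, 0.54, 1.51 and 0.30, all above 0 in brain, where its eye replicates were all below 0, with a mean of 0.60 ± 0.479 (SD, n = 6, limma adjusted p = 0.959). H2-Q10 (-0.21 ± 0.216), H2-K1 (-0.38 ± 0.524) and Ifi27 (-0.19 ± 0.261) came next and had 5 of 6 replicates below 0, with the same adjusted p.

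Brain replicates of H2-K1 were 0.23, -0.43, -1.34, -0.40, -0.22 and -0.13, with replicate 3 far below the others. Irf7 in brain ranged between -1.65 and 0.68. The 21 genes lower in the eye had replicate medians between -0.165 and 0.013 in brain. H2-M3, Ifi30, Ifit3, Oas1h and Stat5b had too few replicates there. The probes of Isg20l2 disagreed, one at 1.11 in 1 replicate and the other at -0.076 over 6.

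In heart, 0 of 30 members were called, as were 0% of all 12755 features (limma). At an unadjusted p below 0.05 there were 2 members, and 8.17% of all features. The members' median was 0.090, with 10 of 30 means below 0, against 51.7% of all features. Every replicate was measured and below 0 in 1 member and in 6.9% of all features. Ifitm10 had ratios between -1.20 and -0.40 with a median of -0.50, all below 0, and a mean of -0.65 ± 0.373 (SD, n = 4, limma adjusted p = 0.568). Ifitm2 (0.41 ± 0.108), Ifitm1 (0.33 ± 0.171) and Isg20 (0.28 ± 0.167) had all 4 replicates above 0 at the same adjusted p, and H2-Q10 had 0.39 ± 0.35 (SD, n = 3, limma adjusted p = 0.572). H2-K1 had 0.23, 0.019, 0.14 and -0.15 in heart. For want of replicates 16 members were not tested, Irf9, Irf8, Oas1a and H2-Eb1 among them. Irf8 had probes of 1.98 in 1 replicate and 0.18 over 2, and Isg20l2 of 0.86 in 1 and -0.24 over 3.

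The difference between organs was tested with each organ's own moderated spread. Eye minus brain was called for 15 of 40 members, 14 lower and 1 higher, where 18.4% of all features were called and 7.14% were lower. Members' median difference was -0.35. Ifi35 (-0.77 ± 0.0879, adjusted p = 9.88e-06) and Ifi27l2a (-1.59 ± 0.255, adjusted p = 0.00033) are the effectors with the smallest and largest spread of this set, and B2m (-0.62 ± 0.104, adjusted p = 0.000496) and H2-Ab1 (-0.55 ± 0.0918, adjusted p = 0.00052) the clearest MHC genes (SE, limma moderated variances). Tap1 differed by -1.88 ± 0.353 (SE, adjusted p = 0.00322). H2-K1, H2-Q10, Ifi27, Ifitm1, Ifitm2, Ifitm3, Irf1, Oas1a and Stat3 also had a lower ratio in eye than in brain, with differences of -0.40 to -1.19, and Irf3 had a higher one, by 0.54 ± 0.115 (SE, adjusted p = 0.00315). Leaving out single replicates gave 11 to 15 calls, where 15.5 to 18.7% of all features were called. A spread shared by all organs gave 10 of 29, where 12.5% of all features were called.

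Eye minus heart was called for 6 of 30 members, all lower, where 4.64% of all features were called and 2.02% were lower. They were Ifitm1 (-1.10 ± 0.168), H2-Q10 (-1.09 ± 0.238), H2-K1 (-1.07 ± 0.156), Ifitm2 (-1.02 ± 0.146), B2m (-0.90 ± 0.158) and Tap1 (-1.93 ± 0.401), with adjusted p between 0.00489 and 0.0379 (SE). This count rested on heart replicates 1 and 2: it was 0 without heart replicate 1, where 0.346% of all features were called, and 1 without heart replicate 2, where 0.84% were, each leaving 3 heart replicates. Brain minus heart was called for 0 of 29 members and 0% of all features. At an unadjusted p below 0.05 there were 4 members, but the share of all features there was not determined, so this count cannot be weighed. The eye comparison used other control mice than brain and heart, so organ and control pool cannot be told apart in the differences that involve the eye.

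**Figure D5:**
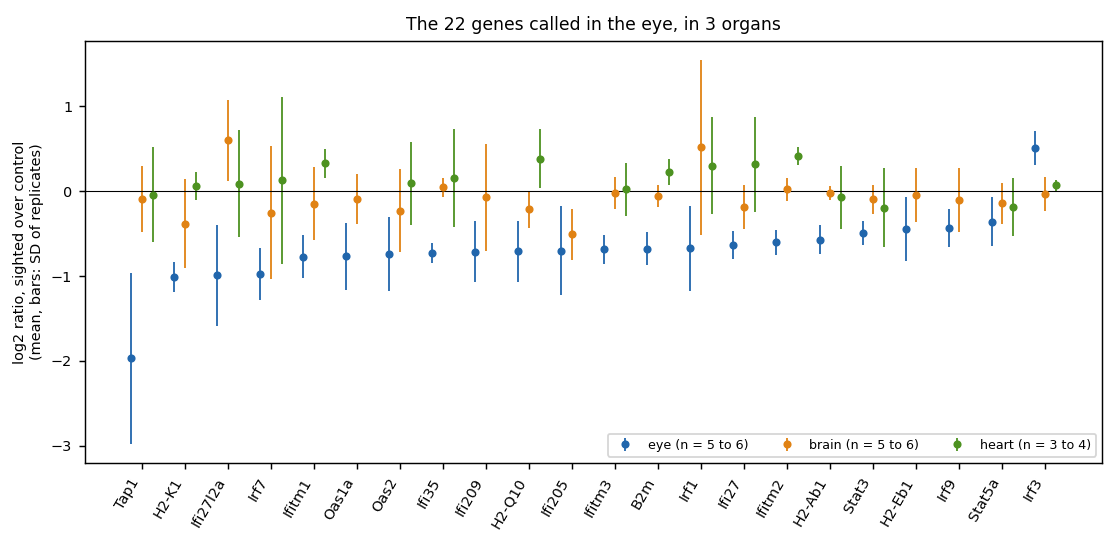
Mean log2 ratio of sighted over control RNA in eye, brain and heart for the 22 members called in the eye, with bars for the SD of replicates. The 21 lower members lie below 0 in the eye, between -1.97 and -0.36, while their brain means run from -0.51 to 0.60 and their heart means from -0.20 to 0.41. Genes without a heart point had too few replicates there.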

How the data were processed

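RNA of eye, brain and heart was hybridised to 2-colour cDNA arrays after reverse transcription and indirect labelling, per the labels' protocols. Per probe, the authors deposited a log2 ratio. It was read as Cy5 over Cy3, a direction taken from the rod genes and not stated in the labels. How arrays were scanned, background-corrected and normalized is not given in the sources used here. The arrays were not all centred, with medians from -0.055 to 0.539. Of all values, 5.88% were missing as deposited, and 4170 values above 15, a repeated ceiling, were treated as missing.

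The sign was turned on arrays that carried the sighted RNA in Cy3. Brain array 3 has Cy5 in the labels of its 2 channels, and its sighted RNA was taken to be the Cy5 one. Brain array 5 is labelled only as sighted. Consecutive arrays of opposite dye were averaged per probe, probes were averaged to genes, and at most 1 replicate could be missing. The array numbers are the only basis for this pairing. Probe names came from the platform annotation: 12771 probes had 1 symbol, 0 had several and 8023 had none. Each organ was fitted with limma 3.58.1 (R 4.3.3) to test a mean of 0, two-sided, with Benjamini-Hochberg adjustment over all features at 0.05. Differences between organs took each organ's own moderated variance. The scripts were tested on simulated data. Promoter windows and their coordinates are from RefSeq on GRCm38.p6.

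Members, pathway lists and marker lists were chosen with earlier results of these data known. Named with values were members called with 1 sign in all replicates, members whose probes differ by more than 1, the 5 members of smallest p in an organ with fewer than 5 calls, members that differ between organs, and up to 3 called genes per list. Other members with values, such as those just short of the threshold, were named after their values were seen. Alternatives covered the handling of arrays, dyes, missing values, spread and replicates.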

Additional observations from a re-analysis of the deposited data

Results flagged for a closer look

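Single replicates stood apart in 5 of 31 groups of replicates examined, by the gap to the nearest replicate as a share of the whole range; chance alone marks about 1 group in 20. In the eye these were the lowest replicate of H2-Eb1 (share 0.661, at -1.16 with the next at -0.46), of Ifi27l2a (0.746, at -2.17 with the next at -0.99) and of Oas2 (0.755, at -1.59 with the next at -0.71). In heart they were the lowest replicate of Ifitm10 (0.83, at -1.20 with the next at -0.54) and the highest of Ifitm2 (0.87, at 0.57 with the next at 0.38).

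The effect of sighted over control RNA differed between organs for the following genes, as log2 differences past an adjusted p of 0.05. Eye minus brain was -0.621 for B2m, -0.554 for H2-Ab1, -0.628 for H2-K1, -0.494 for H2-Q10 and -1.879 for Tap1. It was -0.452 for Ifi27, -1.595 for Ifi27l2a, -0.774 for Ifi35, -0.626 for Ifitm1, -0.624 for Ifitm2, -0.665 for Ifitm3 and -0.676 for Oas1a. Among the transcription factors it was -1.189 for Irf1, -0.398 for Stat3 and 0.542 for Irf3. Eye minus heart was -0.902 for B2m, -1.069 for H2-K1, -1.095 for H2-Q10, -1.101 for Ifitm1, -1.016 for Ifitm2 and -1.931 for Tap1.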

How the results depend on the processing

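Lower calls in the eye numbered 16 to 25 over the alternatives, against 21. With sighted RNA in Cy5 only there were 16, where 3.12% of all features were lower. With sighted RNA in Cy3 only there were 25, where 20.8% were, against 11% in the main fit. Higher calls in the eye numbered 5 with sighted RNA in Cy5 only, 0 with sighted RNA in Cy3 only and 2 with single probes, against 1. In the Cy5 setting Stat5a reversed to 0.172, and 37.2% of all features were higher. In brain, lower calls numbered 1 with Cy5 only (Isg20) and 3 with Cy3 only (H2-K1, Ifi205 and Ifitm10), against 0, where 0.272% and 7.48% of all features were lower. Each orientation alone carries the gene's dye effect. Heart had 0 calls in every alternative run. Eye minus heart gave 14 of 29 calls with 1 spread shared by all organs, where 22.8% of all features were called, against 6. Without single replicates it gave 0 to 6 calls, where 0.346 to 4.74% of all features were called. Brain minus heart gave 1 of 29 with the shared spread, where 2.86% were, against 0. The labels do not say whether array pair numbers tie organs to animals. Deviations of replicates of the same number had correlations between -0.050 and 0.033 across organs. These cannot decide it, since arrays of 1 pair within an organ, with dye means removed, also had mean correlations of only 0.070 (eye), 0.0053 (brain) and -0.014 (heart). A fit with the replicate block gave 13 of 39 calls for eye minus brain, where 14.3% of all features were called. It gave 4 of 30 for eye minus heart, where 1.63% were, and 0 of 28 for brain minus heart, where 0% were. Up to 61.58% missing values on a heart array and 4 replicates limit the heart comparisons.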
